A study of Eurytemora affinis with 18 samples.

Results

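Adult males of the estuarine copepod Eurytemora affinis exposed to the lower nominal concentration of tebufenozide (TEB), 0.5 µg/L, were compared with male controls, and the effect on every gene that passed a filter on low counts was measured. The members are 6 of the 18 libraries of the study, 3 of males at 0.5 µg/L and 3 of male controls, chosen by their labels. Each library was made from a pool of 30 whole adult males after 72 h of exposure, and the controls received the same amount of the solvent acetone without TEB. The other libraries, used here only for the spread between pools and for comparison, are 3 of males at 50 µg/L and 9 of females without eggs at 0, 0.5 and 50 µg/L. The concentration of TEB in the water of the 0.5 µg/L exposure was below the quantification limit, so the dose is known only by its nominal value. Replicates are pools of copepods, and p-values measure the spread between pools.

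TEB is an insecticide of the diacylhydrazine class that binds the ecdysone receptor of insects. Ecdysteroids bound to this receptor switch on early genes such as broad-complex and E74, which in turn control the later genes of the moult, including those of cuticle and chitin. In crustaceans the same hormones act in moulting and reproduction together with methyl farnesoate, and vitellogenin, the precursor of yolk protein, is normally made by females. Animals exposed to an insecticide often make more of the enzymes that detoxify it, among them cytochromes P450 and glutathione S-transferases (GSTs).

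The 6 male libraries held between 6945417 and 10468479 counts, and 17492 of 23728 genes were tested. Before any comparison, the pools differed in how much RNA of female genes they held. Over 247 genes that were far higher in females than in males when both were at 50 µg/L, the median level was 0.24% of the level in female controls in control replicate 1, 37.1% in control replicate 2 and 45.7% in control replicate 3. At 0.5 µg/L it was 0.426% in replicate 1, 24.2% in replicate 2 and 24.2% in replicate 3. Replicate 1 of both groups thus stood apart from replicates 2 and 3. The 3 libraries of males at 50 µg/L held between 0.042 and 0.279%. That low level is no finding, since the genes were chosen for being low in those libraries. The mean share was 27.7% ± 24.1 in controls and 16.3% ± 13.7 at 0.5 µg/L (SD, n = 3), with an exact two-sided permutation p of 0.6, where 0.1 is the smallest p that 3 pools against 3 can give. In pools of whole animals, fewer cells of a type and less RNA per cell cannot be told apart, and the source of the female RNA was not tested. Results that moved with this RNA are given below with and without replicate 1, with a term for the female genes, and with the replicate number as a block.

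**Figure D1:**
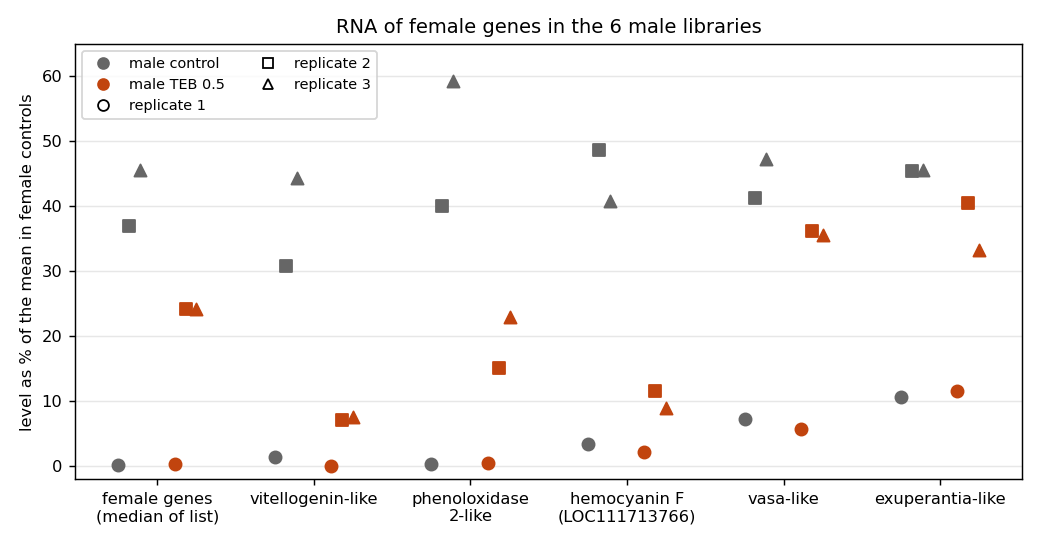
Level of female genes in each male library, as a percentage of the mean in female controls (y axis), for the median of the 247 female genes and for 5 marker genes (x axis). Each point is 1 library, grey for controls and orange for TEB 0.5, and the shape gives the replicate. Replicate 1 of both groups lies near 0 for the list, and vitellogenin, phenoloxidase and hemocyanin in replicates 2 and 3 at 0.5 µg/L lie between 7.11 and 23%, while vasa and exuperantia lie between 33.3 and 40.5%.

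No gene was called in males at 0.5 µg/L. With edgeR's quasi-likelihood test and Benjamini-Hochberg adjustment, 0 of 17492 genes (0%) passed an adjusted p of 0.05 and a fold change of at least 2, and the smallest adjusted p was 0.942. At an unadjusted p under 0.05 there were 693 genes (3.96%), of which 474 (2.71%) were higher and 219 (1.25%) were lower than in controls. With the edgeR likelihood ratio test 762 genes (4.36%) had an unadjusted p under 0.05 and 7 (0.0400%) were called, 5 higher (0.0286%) and 2 lower (0.0114%). With DESeq2 945 of 22114 genes (4.27%) had such a p, and 2 (0.00904%) were called, both higher and both also among the 7. The replicate numbers were taken to pair the pools, although replicates 2 and 3 correlated as much across numbers as within them. With the number as a block in a fit of the 6 libraries, 14 genes were called (0.0831%), 5 higher (0.0297%) and 9 lower (0.0534%). At an unadjusted p under 0.05 that fit gave 1059 higher (6.29%) and 911 lower genes (5.41%). The same block over all 9 male libraries called 0 genes, with a smallest adjusted p of 0.234. Adding the level of the female genes as a term called 11 genes (0.0653%), 8 higher (0.0475%) and 3 lower (0.0178%), and 8 of the 11 were among the 14. At an unadjusted p under 0.05 it gave 1128 higher (6.70%) and 851 lower genes (5.05%). Without replicate 1 of both groups, 119 genes were called (0.665%), 72 higher (0.402%) and 47 lower (0.263%), and at an unadjusted p under 0.05 there were 1790 higher and 1518 lower genes (8.48%). Of the 47 lower genes, 35 were female genes at a lower threshold (a log2 fold change of at least 3 between the sexes), and 37 of the 72 higher genes were male genes at that threshold, against 3.36% female and 17.3% male genes among all genes tested. The part of the sex-specific RNA in these calls was not tested beyond the term above.

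**Figure D2:**
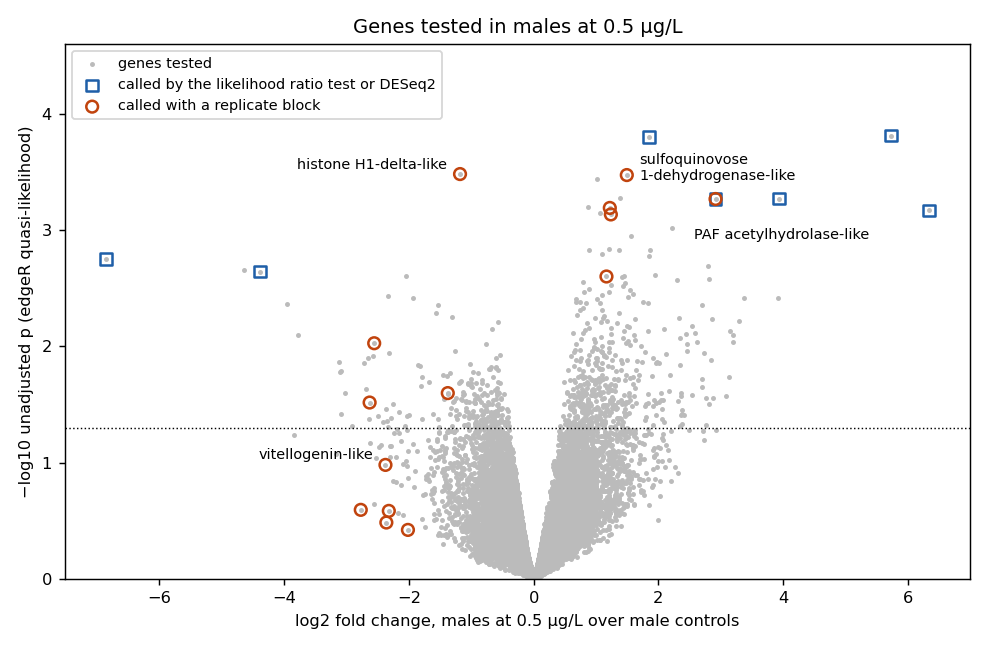
Log2 fold change of males at 0.5 µg/L over male controls (x axis) against −log10 of the unadjusted quasi-likelihood p (y axis) for the 17492 genes tested. Squares mark the 7 genes called by the likelihood ratio test or DESeq2, circles the 14 called with a replicate block, and the dotted line is a p of 0.05. More points lie above the line on the right (474) than on the left (219).

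The gene of a platelet-activating factor (PAF) acetylhydrolase-like protein (LOC111700329) was called by both other tools. It was called in 3 of the fits that took account of the replicate or the female RNA. The replicate block over all 9 male libraries did not call it, and by its quasi-likelihood p in the main fit it ranked 8 among all genes. PAF acetylhydrolases are phospholipases that remove the acetyl group of the lipid mediator PAF and of oxidised phospholipids. Its level, in read counts scaled to the size of each library (CPM), was 0.977, 3.38 and 6.28 CPM in the controls and 15.6, 34.3 and 31.8 CPM at 0.5 µg/L. All 3 exposed pools lay above all 3 controls, and the lowest exposed value was in replicate 1, as was the lowest control. The log2 fold change was 2.92 (SE 0.64, 95% interval 1.54 to 4.29), from 3.54 ± 2.66 to 27.2 ± 10.2 CPM (SD, n = 3). The gene was called by the likelihood ratio test (adjusted p = 0.0213) and DESeq2 (adjusted p = 0.0138). It was also called with the replicate block (edgeR, log2 fold change 3.09, adjusted p = 0.0171), with the term for female genes (3.19, adjusted p = 0.00268) and without replicate 1 of both groups (2.78, adjusted p = 0.0264). The quasi-likelihood fit gave an unadjusted p of 5.41e-04 and did not call it, and its adjusted p over all alternatives ranged from 0.00268 to 1, with log2 fold changes from 2.50 to 3.57. The study had listed this gene on these same pools, so its direction is not independent evidence, and the gene is the only described one of its name.

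An uncharacterized gene (LOC111715380) was called by the same 2 tools. It had 10.7, 5.69 and 9.47 CPM in controls and 18.9, 34.1 and 39.9 CPM at 0.5 µg/L, and the groups did not overlap. Its log2 fold change was 1.85 (SE 0.35), with adjusted p-values of 0.0118 by the likelihood ratio test and 0.0138 by DESeq2, and 0.0876 in the edgeR fit with the replicate block. Without replicate 1 of both groups it was called too (edgeR, 2.29, adjusted p = 0.00113).

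A sulfoquinovose 1-dehydrogenase-like gene (LOC111714714), named for a bacterial enzyme that oxidises a sulfonated sugar, was higher in each exposed pool. The controls had 33.9, 38.4 and 24.8 CPM, and the exposed pools had 135, 71.8 and 66.8 CPM. Here replicate 1, the pool with almost no female RNA, had the highest exposed value. The log2 fold change was 1.49 (SE 0.31), and the gene was called in edgeR with the replicate block (1.44, adjusted p = 0.0317) and with the term for female genes (1.38, adjusted p = 0.0346), but not without replicate 1 (1.13, adjusted p = 0.052). A glutamic acid-rich protein-like gene (LOC111698608) was called in the same 2 fits (log2 fold change 1.20 with the block, adjusted p = 0.0263), with 44.2 ± 11.8 CPM in controls and 99.3 ± 16.2 CPM when exposed (SD, n = 3).

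**Figure D3:**
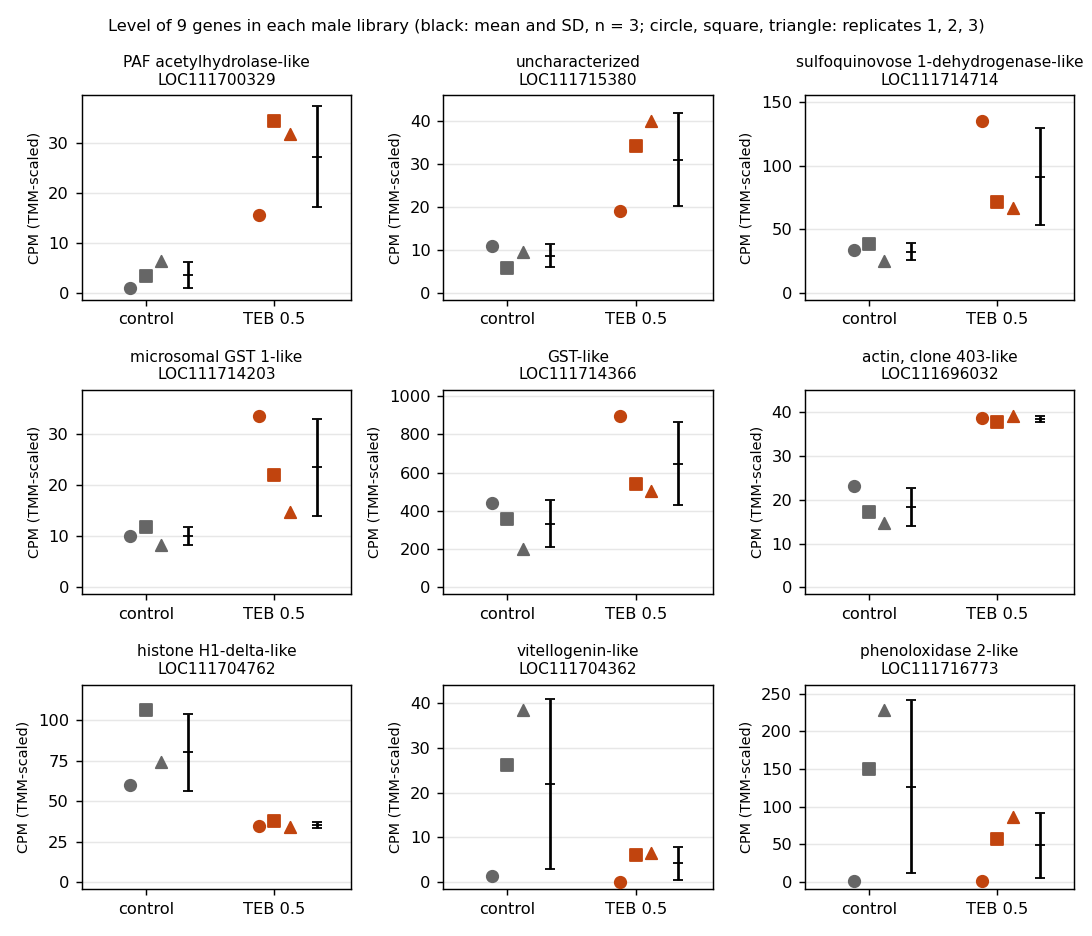
Normalised level in CPM (y axis, linear) of 9 genes in the 3 control and the 3 TEB 0.5 libraries (x axis). Each point is 1 library, its shape gives the replicate, and the black bars are the mean and SD of 3. The groups do not overlap in the first 7 panels, and vitellogenin and phenoloxidase 2 are near 0 in replicate 1 of both groups.

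Of the genes of detoxification, none was called. All described GSTs and cytochromes P450 had positive log2 fold changes, and the other genes of defence had values on both sides of 0. GSTs join glutathione to reactive compounds. All 3 described GST genes lay higher in every exposed pool than in every control, against 5.25% of all genes, and all 3 had an unadjusted p under 0.05, against 2.71% of all genes. The microsomal GST 1-like gene (LOC111714203) had 10.1, 11.8 and 8.38 CPM in controls and 33.6, 22.1 and 14.8 CPM when exposed, a log2 fold change of 1.22 (SE 0.34). The most abundant, GST-like (LOC111714366), had 442, 355 and 199 CPM in controls and 897, 541 and 501 CPM when exposed, a log2 fold change of 0.96 (SE 0.32). In both genes replicate 1 was the highest exposed pool. The GST 1-like gene (LOC111698532) ranged from 182 to 236 CPM in controls and from 268 to 400 CPM when exposed, with a log2 fold change of 0.64 (SE 0.22). The median of the 3 was 0.96, against -0.00387 over all genes tested, and it lay between 0.65 and 1.21 under the alternatives. These genes were described because the study had listed them on the males at 50 µg/L against the same controls, so their direction is not independent evidence.

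Cytochromes P450 oxidise foreign compounds and hormones. The 6 described P450 genes had positive log2 fold changes from 0.41 to 1.02, with a median of 0.64, and 4 of them lay above every control, against 5.25% of all genes. An unadjusted p under 0.05 was reached by 2, against 2.71% of all genes that were higher at this p. These were cytochrome P450 6j1-like (LOC111709431), with 0.87 (SE 0.35), and a cytochrome P450 3A24-like gene (LOC111712470), with 0.65 (SE 0.27). The former had 5.72, 9.51 and 5.09 CPM in controls and 10.1, 10.6 and 16.6 CPM when exposed, so that its groups were barely apart. The most abundant, probable cytochrome P450 6a13 (LOC111705105), had 28.5, 30.7 and 20.8 CPM in controls and 40.3, 32.3 and 34.1 CPM when exposed. Other enzymes of defence had values on both sides of 0. Superoxide dismutase-like (LOC111712239), which breaks down superoxide, had a log2 fold change of 0.77 (SE 0.37), while multidrug resistance protein 1-like (LOC111712699), an efflux pump, had 0.43 (SE 0.25). ABC transporter F family member 4-like (LOC111702334), of a subfamily that acts in translation rather than transport, had -0.39 (SE 0.29). Carboxylesterase 5A-like (LOC111699961) had 0.12 (SE 0.35) and esterase FE4-like (LOC111715882) -0.61 (SE 0.65). The study had listed these genes too on the males at 50 µg/L against the same controls, so their direction is not independent evidence.

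Among genes of muscle and cytoskeleton, 13 of 15 had positive values, with a median log2 fold change of 0.47, and 2 were higher at an unadjusted p under 0.05, against 49.7% of all genes that were positive and 2.71% that were higher at this p. With the replicate block 7 were higher and 1 lower at this p, against 6.29 and 5.41%. An actin gene (LOC111696032) had the smallest p of the list, with 23.2, 17.2 and 14.8 CPM in controls and 38.6, 37.9 and 39.2 CPM when exposed. The exposed pools lay close together, with an SD of 0.679 CPM, and above every control, and the log2 fold change was 1.07 (SE 0.24). It was called without replicate 1 of both groups (edgeR, adjusted p = 0.00852) and not with the replicate block (adjusted p = 0.149). Titin homolog (LOC111703505), a giant protein of the sarcomere, had 0.86 (SE 0.33). Myosin regulatory light chain 2-like (LOC111708305), the most abundant of the list, had 561 ± 234 CPM in controls and 693 ± 53 CPM when exposed (SD, n = 3), where the groups overlapped and only control replicate 3 was low. The study had listed all 15 on males at 50 µg/L against the same controls, so their direction is not independent evidence. Of these 15 genes, 5 were higher in males than in females by a log2 fold change of at least 3, and the level of the male genes differed between pools. Over 690 male genes, the median level was 138, 83.5 and 60.6% of that in males at 50 µg/L in the controls and 141, 91.8 and 90.2% at 0.5 µg/L, which followed the replicate more than the group (94.1 ± 39.8 and 108 ± 29%, SD, n = 3, exact two-sided permutation p = 0.5), and the part of this in the result was not tested.

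**Figure D4:**
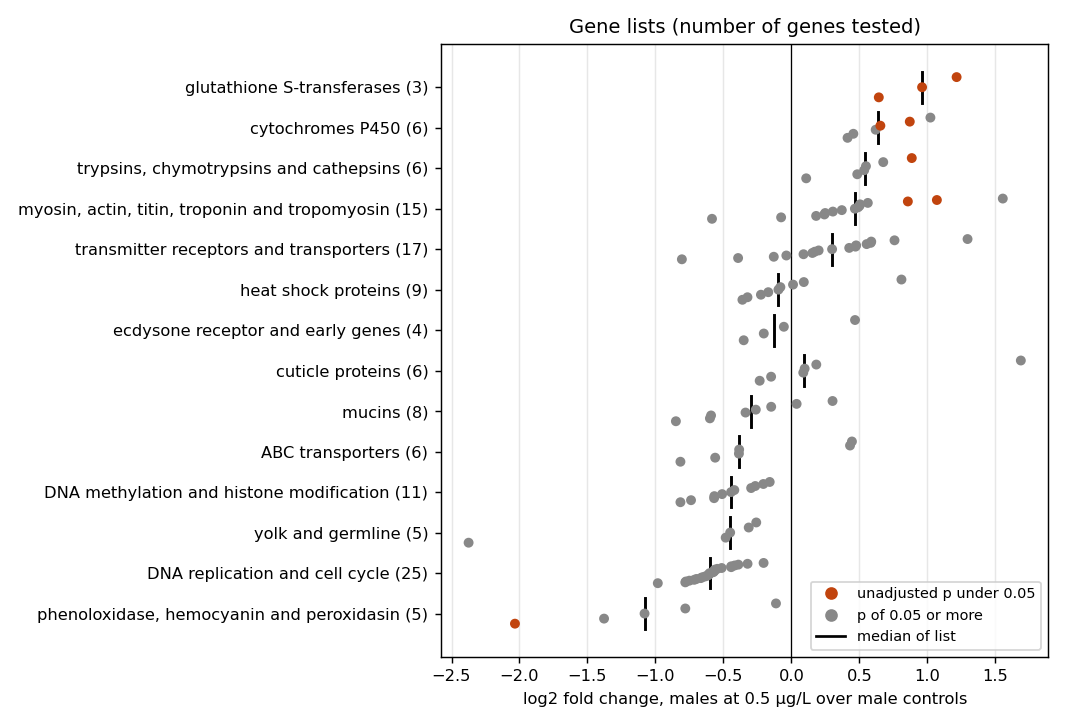
Log2 fold change of males at 0.5 µg/L over male controls (x axis) for the genes of 14 lists (y axis, number of genes in brackets). Each point is a gene, orange where its unadjusted quasi-likelihood p is under 0.05, and the black line is the median of the list. The lists run from a median of 0.96 for GSTs to -1.08 for phenoloxidase, hemocyanin and peroxidasin.

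Some genes were detected almost only in 1 of the groups, at few counts. An axoneme-associated protein mst101(2)-like gene (LOC111704844), named for a protein of the sperm tail of Drosophila, had 0, 1 and 2 counts in the controls and 13, 18 and 12 when exposed. Per library size it was 17-fold higher (95% interval 5.43 to 85.5 from counting error alone), and the likelihood ratio test called it (adjusted p = 0.00767). A related gene of the same description (LOC111695653) behaved differently, with 10.5, 724 and 833 CPM in controls and 9.99, 479 and 483 CPM when exposed, a pattern across pools like that of the female genes, to which it belongs. LOC111714977 had 0 counts in every control and 6, 14 and 12 when exposed, at least 12.6-fold higher against a floor of 3 counts over the group. LOC111699634 had 1 count over the 3 controls and 63 over the exposed pools, a ratio of 74.6 (12.9 to 2992 from counting error alone). In the other direction, LOC111702167 had 24, 3 and 21 counts in controls and 0 in every exposed pool, at least 13.5-fold lower, and LOC111717279 had 12, 24 and 26 counts in controls and 2, 0 and 0 when exposed, 26.2-fold lower (6.95 to 221 from counting error alone). These 4 genes have no description in the sources used here, and all 4 were called by the likelihood ratio test but not by DESeq2.

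Histone H1-delta-like (LOC111704762), a linker histone that binds the DNA between nucleosomes, had the smallest quasi-likelihood p among the genes below the controls. It had 60, 106 and 74.2 CPM in controls and 34.5, 37.6 and 34 CPM when exposed. The exposed pools were close to each other, with an SD of 1.96 CPM, and all lay below every control. The log2 fold change was -1.18 (SE 0.24, 95% interval -1.71 to -0.65). It was called in edgeR with the replicate block (-1.14, adjusted p = 0.0464), with the term for female genes (-1.13, adjusted p = 0.0346) and without replicate 1 of both groups (-1.33, adjusted p = 0.00684). It does not belong to the list of female genes at either threshold. Protein tilB homolog (LOC111710652), named for a Drosophila gene needed for motile cilia, had 6.42, 7.55 and 1.5 CPM in controls and 1.06, 0 and 0 CPM when exposed, 17.6-fold lower (8.34 to 44.6 from counting error alone), with an unadjusted p of 0.00435. All its exposed counts were in replicate 1. Its fitted log2 fold change went from -3.95 to -8.33 without TEB 0.5 replicate 1, and it was called without replicate 1 of both groups (edgeR, adjusted p = 0.0260), but a fitted value against a group at 0 is no measure of size. Zinc finger protein 64 homolog (LOC111701247) had 5.03, 14.5 and 12.4 CPM in controls and 1.21, 4.27 and 2.78 CPM when exposed, with an unadjusted p of 0.00382. Of the other genes chosen by their p-values, 5 higher (LOC111702098, LOC111703355, LOC111704369, LOC111715756 and LOC111699634) and 5 lower (LOC111699852, LOC111700714, LOC111710680, LOC111714467 and LOC111717279) have no description. Among the higher ones, LOC111703355 had 101, 58.7 and 48.5 CPM in controls and 151, 176 and 159 CPM when exposed, and it was called with the block, with the term for female genes and without replicate 1 (edgeR, adjusted p = 0.0464, 0.0346 and 0.00113).

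Vitellogenin-like (LOC111704362), the yolk gene, was lower in each exposed pool than in the control pool of the same replicate number. It had 1.26, 26.1 and 38.4 CPM in control replicates 1, 2 and 3 and 0, 6.05 and 6.44 CPM in the exposed replicates. The groups overlapped, since control replicate 1 lay between the exposed pools. The quasi-likelihood log2 fold change was -2.37 with an SE of 1.29 and an unadjusted p of 0.105. With the replicate block the log2 fold change was -2.46 (SE 0.40) and the gene was called (edgeR, adjusted p = 0.0464). Without replicate 1 of both groups it was -2.36 (adjusted p = 0.00735). With the term for female genes it was -1.92 (SE 0.37) and not called (adjusted p = 0.109). As a share of the level in female controls, vitellogenin was 30.9 and 44.4% in control replicates 2 and 3, near the 37.1 and 45.7% of the female list, and 7.11 and 7.59% in the exposed replicates 2 and 3, below the 24.2 and 24.2% of the list.

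Genes of melanisation and oxygen transport that are high in females split. Phenoloxidase 2-like (LOC111716773), of the enzymes that make melanin in defence and cuticle hardening, had 1.54, 151 and 228 CPM in controls and 1.82, 57.3 and 86.9 CPM when exposed, and it was called only without replicate 1 of both groups (edgeR, log2 fold change -1.39, adjusted p = 0.00802) among the fits named here. A hemocyanin F chain-like gene (LOC111713766), of the copper protein that carries oxygen in crustaceans, had 4.61, 61.3 and 52.5 CPM in controls and 2.88, 14.6 and 11.3 CPM when exposed, a log2 fold change of -2.03 (SE 0.85). The other (LOC111698228) had 2.09, 95.4 and 101 CPM in controls and 1.66, 88.7 and 92.8 CPM when exposed, a log2 fold change of -0.11 (SE 1.48). Both are female genes and were near 0 in replicate 1 of both groups, and both were lower in the exposed replicates 2 and 3, but only the former was called without replicate 1 (edgeR, adjusted p = 0.00509). The difference between these 2 genes was not tested. All 5 genes of this list belong to the female list.

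Genes of DNA replication and the cell cycle lay lower together, but none was called in the main fit. All 25 had negative log2 fold changes, from -0.98 to -0.20 with a median of -0.60, while 49.7% of all genes were positive with a median of -0.00387, and 0 of 25 had an unadjusted p under 0.05. With the replicate block 16 of 25 had an unadjusted p under 0.05 and were lower, against 5.41% of all genes, and with the term for female genes 12 of 25 were, against 5.05%. DNA primase large subunit-like (LOC111695925), which starts new DNA strands, had 58.4, 101 and 118 CPM in controls and 42.1, 71.2 and 69.4 CPM when exposed, a log2 fold change of -0.61 (SE 0.28). Cyclin-A2-like (LOC111714223), the most abundant, had 72.9, 336 and 429 CPM in controls and 49.9, 290 and 276 CPM when exposed. In cell division control protein 45 homolog (LOC111711288), a helicase partner at the replication fork, replicates 2 and 3 had 85.1 and 80.9 CPM in controls and 38 and 43.4 CPM when exposed, and it was the only gene of the list called without replicate 1 (edgeR, log2 fold change -1.03, adjusted p = 0.0224). All 25 had been listed by the study on males at 50 µg/L against the same controls, so their direction is not independent evidence. Of the 25 genes, 15 were female genes at the lower threshold. The share of female RNA was lower on average at 0.5 µg/L too, with an exact two-sided permutation p of 0.6. The part of the female RNA in the shift of the 25 genes was not tested beyond the term above.

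Genes of DNA methylation and histone modification had negative values in 11 of 11, with a median of -0.44, and 0 of 11 had an unadjusted p under 0.05. With the replicate block 5 of 11 were lower at this p, against 5.41% of all genes, and with the term for female genes 1 of 11 was, against 5.05%. Histone acetyltransferase KAT8-like (LOC111694847) had -0.74 (SE 0.42) and DNA N6-methyl adenine demethylase-like (LOC111713817) -0.27 (SE 0.46), and 3 of the 11 were female genes at the lower threshold. All 11 had been listed by the study on males at 50 µg/L against the same controls, so their direction is not independent evidence. The germline genes vasa and exuperantia, which mark the germ cells and the egg, had log2 fold changes nearer to 0 than vitellogenin. ATP-dependent RNA helicase vasa-like (LOC111702462) had 19.8, 108 and 126 CPM in controls and 15.7, 95 and 93.3 CPM when exposed (log2 fold change -0.31, SE 0.78), and a probable vasa-like helicase (LOC111703234) had -0.48 (SE 0.73). Maternal protein exuperantia-1-like (LOC111705270) had 12.3, 50 and 51.2 CPM in controls and 13.5, 44.8 and 36.7 CPM when exposed (-0.26, SE 0.56). Relative to female controls, vasa stood at 36.2 and 35.6% in the exposed replicates 2 and 3, and exuperantia at 40.5 and 33.3%. Over the 240 female genes tested, 235 were negative with a median of -0.81, and 7 had an unadjusted p under 0.05, all lower. With the term for female genes the median was -0.00621, which the fit sets near 0, since the term is the summed level of these same genes.

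None of the genes that respond first to ecdysone was called or had an unadjusted p under 0.05 by the quasi-likelihood test, and 1 of 4 was lower at that p with the replicate block, against 5.41% of all genes. The sources used here describe 4 such genes and no ecdysone receptor gene. Ecdysone-induced protein 74EF-like (LOC111704069) had 17.2, 4 and 13.5 CPM in controls and 16.8, 17.2 and 13.7 CPM when exposed, where a single control was low, and its log2 fold change was 0.47 (SE 0.44). The 3 broad-complex genes had -0.35 (LOC111694963, SE 0.42), -0.20 (LOC111709681, SE 0.31) and -0.06 (LOC111704351, SE 0.54). The interval of LOC111709681, the most abundant with 95.2, 213 and 244 CPM in controls and 107, 184 and 189 CPM when exposed, lay within a 2-fold change either way. Methyl farnesoate epoxidase-like (LOC111717477), which in insects turns methyl farnesoate into juvenile hormone, had 5.3, 2.04 and 3.49 CPM in controls and 8.78, 3.44 and 4.78 CPM when exposed. It was higher at each replicate number, but the groups overlapped, and the log2 fold change was 0.66 (SE 0.44).

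Downstream of the hormones, the 6 cuticle protein genes had a median of 0.0926, and 0 of them had an unadjusted p under 0.05. Cuticle protein 7-like (LOC111698563) varied most, with 258, 322 and 41 CPM in controls and 151, 898 and 948 CPM when exposed. Its replicates 2 and 3 were far above the controls and replicate 1 below 2 of them, and the log2 fold change was 1.69 (SE 0.90, unadjusted p = 0.102). Endochitinase A-like (LOC111697179), which digests chitin, had -0.26 (SE 0.37). The study had not listed the cuticle genes on males at 50 µg/L.

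Heat shock proteins, chaperones that bind damaged proteins, had values on both sides of 0. The 9 genes had a median of -0.0951 and 0 had an unadjusted p under 0.05. The 6 heat shock 70 kDa genes (LOC111711805, LOC111717007, LOC111711631, LOC111717003, LOC111704938 and LOC111707610) had log2 fold changes from -0.36 to 0.09. In LOC111707610 the controls had 15.9, 24.7 and 12 CPM and the exposed pools 31.5, 14.6 and 7.33 CPM, with replicate 1 the highest and replicate 3 the lowest. Heat shock protein beta-1-like genes had -0.08 (LOC111708726, SE 0.29) and 0.81 (LOC111712531, SE 0.71).

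The remaining lists held no gene called by the quasi-likelihood test. All 6 trypsins, chymotrypsins and cathepsins, digestive and lysosomal proteases, were positive with a median of 0.54, and 3 lay above every control, against 5.25% of all genes. Chymotrypsinogen A-like (LOC111701514) had 14.4, 5.86 and 7.98 CPM in controls and 17.4, 19.3 and 15.1 CPM when exposed (0.89, SE 0.37), and cathepsin L1-like (LOC111697677) had 0.48 (SE 0.35). Trypsin-1-like (LOC111716204) reversed between the pairs, with 39.1, 5.6 and 3.69 CPM in controls and 6.05, 30.7 and 39.6 CPM when exposed, so that it was called higher without replicate 1 (edgeR, adjusted p = 0.00113) but had an unadjusted p of 0.468 with it. Of 17 receptors and transporters of nerve transmitters, 13 were positive with a median of 0.30 and 14 were genes high in males. All 17, and 5 of the 6 proteases above, had been listed by the study on males at 50 µg/L against the same controls. Their direction is therefore not independent evidence. Acetylcholine receptor subunit beta-like (LOC111714797) had 0.76 (SE 0.40) and the alpha-type acr-16-like subunit (LOC111697821) 0.15 (SE 0.25). Integumentary mucin C.1-like genes had -0.85 (LOC111712797, SE 0.44) and 0.04 (LOC111711799, SE 0.34). Of the eye genes, irregular chiasm C-roughest protein-like (LOC111699563) had 0.29 (SE 0.35) and chaoptin-like (LOC111695981) -0.92 (SE 1.21). Phospholipase B1-like (LOC111706278), a female gene, had 0, 247 and 467 CPM in controls and 6.05, 179 and 176 CPM when exposed.

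The same concentration was given to females, with controls of their own, so the effect could be compared between the sexes over 18 libraries. In females 0 of 18110 genes were called by the quasi-likelihood test and 566 (3.13%) had an unadjusted p under 0.05. For the difference between the sexes 0 genes were called and 1170 (6.46%) had an unadjusted p under 0.05, with a smallest adjusted p of 0.208. By the likelihood ratio test 40 genes (0.221%) were called, and by DESeq2 37 of 22389 (0.165%). The difference, males minus females, was positive in 33 and negative in 7 of the 40, and positive in all 37 genes called by DESeq2. The 27 genes that both called all had positive log2 fold changes in males and negative ones in females, and 10 of them are described. Of the exposed female libraries, 1 ran on another flow cell than the female controls, and its part in these differences was not tested. Without control replicate 1 of the males, the quasi-likelihood test called 9 genes.

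Zonadhesin-like (LOC111706122), named for a protein of the sperm head that binds the egg coat, had 17.1, 8.3 and 10.7 CPM in male controls and 19.4, 24.1 and 25.9 CPM in exposed males. In females it had 6.42, 3.66 and 5.45 CPM in controls and 1.84, 1.97 and 1.74 CPM when exposed. The groups did not overlap in either sex. The difference of the log2 fold changes, males minus females, was 2.44 (adjusted p = 0.233 by the quasi-likelihood test and 0.00615 by DESeq2). Another zonadhesin-like gene (LOC111716440), more abundant in males, went the other way in them, with a log2 fold change of -0.35 (SE 0.34). It had 37.6, 105 and 85.2 CPM in male controls and 45.3, 70.6 and 63.6 CPM in exposed males, at the scaling of the male libraries. Glutamic acid-rich protein-like (LOC111698608), described above for males, had 54.4, 55.5 and 32.9 CPM in male controls and 116, 115 and 88.7 CPM in exposed males at the scaling of 18 libraries. It had 15.5, 8.47 and 10.7 CPM in female controls and 6.79, 5.48 and 2.56 CPM in exposed females. Mucin-5AC-like (LOC111697205), of the gel-forming mucins, rested on the females, with a log2 fold change of 0.31 (SE 0.36) in males and -1.92 (SE 0.39) in females. Carboxypeptidase B-like (LOC111703255), a digestive enzyme, had 0.41 (SE 0.26) in males and -1.14 (SE 0.27) in females. Sodium-dependent proline transporter-like (LOC111711529) had 1.04 (SE 0.50) and -1.97 (SE 0.61).

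The genes named for their values in males are given here with their values in females, as a description. For the PAF acetylhydrolase-like gene the females had 2.49 ± 0.147 CPM in controls and 2.41 ± 0.614 CPM at 0.5 µg/L (SD, n = 3), and the sexes differed by 2.99 (SE 0.85) with an unadjusted p of 0.00244 and an adjusted p of 0.538 by edgeR. GST-like (LOC111714366) had a log2 fold change of 0.00347 (SE 0.25) in females, and microsomal GST 1-like (LOC111714203) had -0.23 (SE 0.36). Histone H1-delta-like went the same way in both, with -0.42 (95% interval -0.88 to 0.04) in females. Vitellogenin-like had 93 ± 37.3 CPM in female controls and 84.1 ± 6.32 CPM in exposed females, a log2 fold change of -0.15 (95% interval -1.94 to 1.64), and the difference from males was not called (edgeR, unadjusted p = 0.101). Cuticle protein 7-like had -2.63 (SE 0.93) in females against 1.69 in males, a difference of 4.33 with an unadjusted p of 0.00529.

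**Figure D5:**
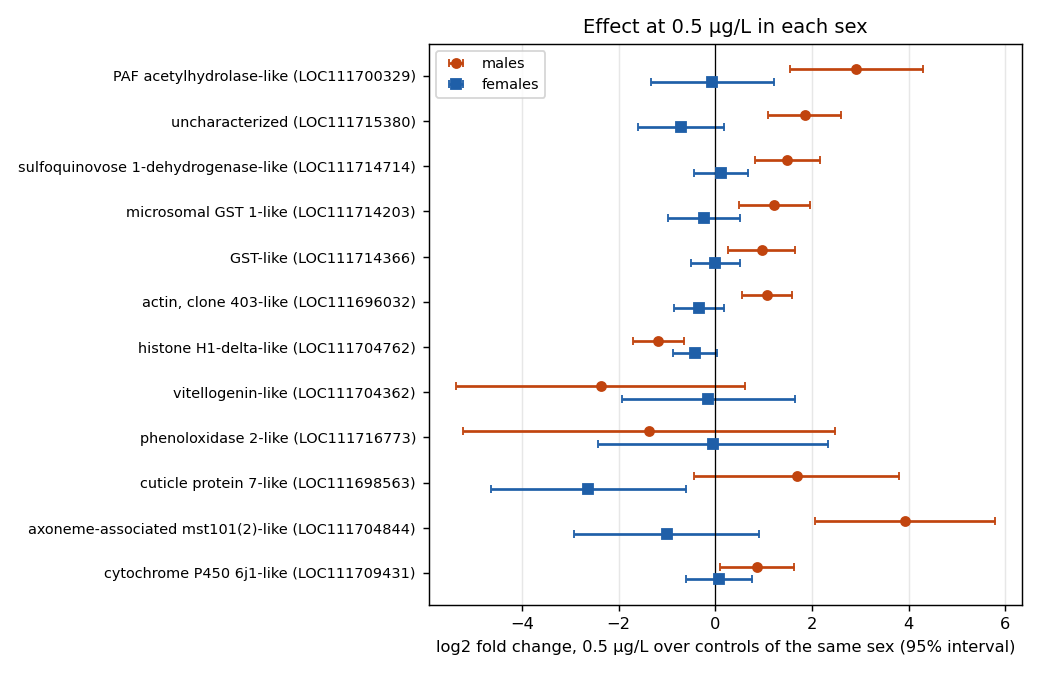
Log2 fold change at 0.5 µg/L over controls of the same sex (x axis) for 12 genes (y axis), with 95% intervals, orange circles for males and blue squares for females (3 pools against 3 in each). The intervals of the PAF acetylhydrolase-like gene, from 1.54 to 4.29 in males and from -1.33 to 1.21 in females, do not overlap, and those of vitellogenin-like do.

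Males at 50 µg/L share their controls with the males at 0.5 µg/L, so the values are given side by side only. Their flow cell was also not that of the controls, so the dose and the flow cell cannot be told apart there. The PAF acetylhydrolase-like gene had 12.9 ± 9.71 CPM at 50 µg/L and a log2 fold change of 1.72 (SE 0.63) there, against 2.92 at 0.5 µg/L. The sulfoquinovose 1-dehydrogenase-like gene had 2.71 at 50 µg/L against 1.49, LOC111715380 had 2.33 against 1.85, and the actin gene LOC111696032 had 1.55 against 1.07. GST-like had 1.80 against 0.96. Histone H1-delta-like had -1.84 against -1.18. Methyl farnesoate epoxidase-like had 3.01 against 0.66, and the heat shock 70 kDa gene LOC111707610 had 2.76 against 0.01. LOC111702167, at 0 counts at 0.5 µg/L, had -0.28 at 50 µg/L.

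The precision of the comparison differed between genes. The median SE of a log2 fold change was 0.39, and 6437 genes (36.8%) had a 95% interval within a 2-fold change in either direction. Among genes with a mean of at least 5 CPM it was 6405 of 12488 (51.3%), and among genes under 1 CPM it was 1 of 475 (0.211%). The fitted log2 fold change was past 1 in either direction for 1144 genes (6.54%). The median SE over the female genes was 1.41.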

How the data were processed

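The deposited values are raw read counts per gene, which the authors made by trimming with Trimmomatic, aligning with STAR (genome Eaff_2.0) and counting with featureCounts. The sources used here do not give how strand was treated. All 6 libraries compared ran on the same flow cell. All libraries at 50 µg/L, including the 3 male ones in the fit, and 1 female library at 0.5 µg/L ran on another. Gene descriptions came only from the gene lists of the study (1434 genes, 1426 of the 17492 tested), most of which the study had chosen on males at 50 µg/L. The members, lists and tests were chosen with earlier results of these data known.

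R 4.3.3 and edgeR 4.0.16 were used for the fits (default filter on low counts, TMM factors, robust quasi-likelihood test) on the 9 male libraries with 1 mean per group, and for the sexes on all 18. A call needed a Benjamini-Hochberg adjusted p up to 0.05 together with a 2-fold difference. Levels are CPM scaled by TMM. DESeq2 1.42.0, the likelihood ratio test, other scalings and filters, each library left out, a replicate block and a term for the log2 summed CPM of the female genes were alternatives. Female genes had a log2 fold change of at least 5 (alternatively 3) of females over males, both at 50 µg/L, an adjusted p of at most 0.05 and at least 5 CPM. Same-numbered control and exposed pools deviated together, with correlations of 0.641, 0.306 and 0.407, so the numbers were taken to pair the pools. Control 2 with exposed 3 (0.327) and control 3 with exposed 2 (0.368) correlated as much. Without female and male genes at the lower threshold, the same-numbered correlations were 0.406, 0.123 and 0.229, and the crossed ones were 0.129 and 0.200. The matching of replicates 2 and 3 is therefore not settled by these values. No library copied another, since replicates differed by more than sampling noise (lowest chi-square per degree of freedom 4.58). Counting intervals cover counting error only, as reads without molecular identifiers are not independent molecules. The steps were tested on simulated counts. Genes were named where they carry the description of the PAF acetylhydrolase, were among the 8 of smallest p in each direction with a mean of at least 1 CPM and no overlap, were called by another tool, had the smallest p or highest level in a list, or are genes of interest of the study. All others were named after their values were seen. The list of ribosomal proteins held 0 described genes.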

Additional observations from a re-analysis of the deposited data

How the results depend on the processing

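In males, the count of genes called was 0 with DESeq2's size factors in edgeR, with scaling factors set without the female genes, with no or a stricter filter on low counts, in fits of the 6 or of all 18 libraries, and with each library left out (0 to 0). It was 7 by the likelihood ratio test, 2 by DESeq2, 14 with the replicate block, 11 with the term for female genes and 119 without replicate 1 of both groups, a fit of 7 libraries. The cause of these differences was not tested. Scaling by library size alone and the replicate block over 9 male libraries, both chosen after seeing the data, gave 0. Without control replicate 1, 3898 genes had an unadjusted p under 0.05 against 693 with it, and the smallest adjusted p was 0.0669. The number of genes with an interval within a 2-fold change lay between 4100 and 6316 with each library left out, lowest without TEB 0.5 replicate 3. For the difference between the sexes, 40 genes were called by the likelihood ratio test, 37 by DESeq2, 0 with the replicate block and 0 to 9 with each library left out. The difference in the share of female RNA lay between -25.1 and -2.38 percentage points with each male library left out, against -11.4.

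Some of the named genes changed sign with 1 library left out, among them LOC111712531 (log2 fold change 0.81 in the main fit) and LOC111715882 (-0.61). The cause was not tested for these genes. Their log2 fold changes ranged from -0.20 to 1.29 in LOC111712531, from -0.00387 to 0.58 in LOC111708305, from -1.11 to 0.0629 in LOC111715882, from -0.71 to 0.00968 in LOC111694963, from -0.56 to 0.0758 in LOC111697179, from -0.51 to 0.0400 in LOC111709681, from -0.0259 to 0.49 in LOC111697821, from -0.62 to 0.11 in LOC111713817, from -0.90 to 0.019 in LOC111714223, from -0.67 to 0.10 in LOC111705270, from -0.68 to 0.0901 in LOC111711805, from -1.48 to 0.20 in LOC111717007, from -0.78 to 0.15 in LOC111702462, from -0.12 to 0.52 in LOC111699961, from -0.95 to 0.65 in LOC111711631, from -0.25 to 0.0131 in LOC111708726, from -0.73 to 0.24 in LOC111717003, from -0.40 to 0.30 in LOC111704938, from -0.31 to 0.67 in LOC111711799, from -0.54 to 0.38 in LOC111704351, from -0.68 to 0.39 in LOC111707610, from -0.68 to 0.45 in LOC111698228. With DESeq2 and with its size factors, LOC111711799 had -0.00337 and -0.00152, and LOC111707610 had -0.0248 and -0.0258. LOC111707610 also had -1.33e-04 with no filter, -0.16 with the replicate block, -0.13 with the replicate block over 9 libraries, -0.75 without replicate 1 of both groups, -0.20 with the term for female genes and -0.0596 by library size alone. Without replicate 1 of both groups LOC111704938 had -0.33 and LOC111704351 had 0.0312. With the term for female genes LOC111704938 had -0.0406, LOC111711631 had 0.00561, LOC111706278 had 0.25 and LOC111698228 had 0.46. Among the genes named here, the replicate block called none beyond those given, and not all of the 14 genes it called are named. The median SE was 1.06 for genes under 1 CPM against 0.33 for genes of at least 5 CPM.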

Other observations

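Among the 50 genes of smallest unadjusted p in males, 43 were higher and 7 lower at 0.5 µg/L. The groups did not overlap in any of the 50, which the choice by smallest p favours. Over all genes tested, 5.25% lay higher and 3.19% lower without overlap. None of the 50 was a female gene at the lower threshold, against 3.36% of all genes tested. That absence is no finding, since female genes could hardly reach a small p. At the stricter threshold their median SE was 1.41, against 0.39 over all genes tested. Male genes at that threshold made up 20 of the 50, against 17.3% of all genes tested. Of these genes 15 are described.

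The most abundant gene among the 27 that differed between the sexes by both the likelihood ratio test and DESeq2 was LOC111701273, an uncharacterized gene. It had 6165, 4358 and 4486 CPM in male controls and 7748, 7469 and 7209 CPM in exposed males. In females it had 1566, 1112 and 1343 CPM in controls and 885, 852 and 610 CPM when exposed, so that the groups did not overlap in either sex and lay in opposite order. The log2 fold change was 0.59 (SE 0.17) in males and -0.78 (SE 0.17) in females, and the difference had an adjusted p of 0.208 by edgeR's quasi-likelihood test, 0.0394 by its likelihood ratio test and 0.00206 by DESeq2. It was chosen after its values were seen.

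Female genes differed from each other in the ratio of exposed to control level in replicates 2 and 3 of the males. The share of female RNA over all 3 pools per group had an exact two-sided permutation p of 0.6, so a lowering by exposure was not shown. Over replicates 2 and 3 the level at 0.5 µg/L was 0.568 of the control level at the median of 247 female genes, 0.195 for vitellogenin-like, 0.229 for hemocyanin F chain-like LOC111713766 and 0.384 for phenoloxidase 2-like. From the lowest up, these ranked 15, 23 and 46 of the 247. The genes were chosen after their values were seen and the ranks were not tested.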
